A study of Mus musculus with 64 samples.

Results

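The cells described here carried CD64 and CD4 but neither CD3 nor high Ly-6G, Ly-6C or CD90.2 in single-cell surface protein libraries of the mouse colon. They were chosen by measured values: a cell was taken when its centred log ratio, that is ln(count + 1) less the average of this quantity over the 11 antibodies of the cell, was above 0.105 for CD64 and above 0.652 for CD4. It also had to be at or below -0.155 for CD3, 0.982 for Ly-6G, 3.162 for Ly-6C and 2.035 for CD90.2. These conditions held for 1577 of 130442 cells, or 1.21%. Without the CD4 condition they held for 9755 cells, called the CD64 gate below, and CD4+CD64+ cells made up 16.2% of it. The other 8178 cells of the gate, the CD4- CD64+ cells, differ from them in the CD4 condition alone and serve as the comparison. The levels of CD64, CD4, CD3, Ly-6G, Ly-6C and CD90.2 in these cells were fixed by the choice and are given as a description.

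The libraries came from a T cell transfer model of colitis, in which SCID mice, which lack their own T and B cells, receive CD45RBhi T cells. Each was made from EpCAM- CD45+ cells sorted from the lamina propria of the distal colons of 3 pooled animals. One library was from week 7 of mice given an antibody to IL-12p40, a protein chain common to IL-12 and IL-23, from day 10. The other 8 were from mice without that antibody, 1 for each of weeks 0 to 7, and all 9 are labelled as SCID with CD45RBhi transfer. The other 55 samples of the series were not analysed here. The age of the mice and the antibody dose are not given in the sources used here.

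CD64 is the high-affinity receptor for IgG and is used to tell intestinal macrophages from dendritic cells. Most colonic macrophages arise from blood monocytes, which carry Ly-6C and lose it as they mature, and CD11b, an integrin of myeloid cells, stays on them. CD4 is best known as the co-receptor of helper T cells. In the mouse intestine CD4 is also found on macrophages, where together with Tim-4 it marks cells that persist locally with little replacement from monocytes. Tim-4 was not among the 11 antibodies, so that subset could not be identified as such.

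Barcodes numbered 11534 to 21229 per library and counts 12914066 to 28723452, with a median of 576.5 to 1566 counts per kept cell. Pairs of libraries shared 30 to 110 barcodes. A barcode that was also present in another library was carried by 59 CD4+CD64+ cells, and 0 barcodes fell among the CD4+CD64+ cells of more than 1 library. No doublet caller was run, so droplets holding a macrophage and a T cell were not removed beyond the limits on CD3 and CD90.2. Each group is 1 pool per week, so p-values measure the order of pools and the spread between animals is not known.

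The label was first compared with markers. CD11b, which had no threshold of its own in the choice and entered it only through the mean over 11 antibodies, was above its threshold on 67.3% to 96.9% of CD4+CD64+ cells across weeks 0 to 6, and on 89.2% to 98.7% of CD4- CD64+ cells. The lowest shares were in week 3 (67.3%, 95% exact interval 53.3% to 79.3%) and week 6 (71.6%, 59.9% to 81.5%). CD11b was thus found on most of these cells in each of those 7 weeks, with 55 to 544 cells per library. CD64 was required by the choice. High CD4 counts lower the CD11b value on this scale, since CD4 enters the mean over 11 antibodies. Week 7 held 9 cells in the anti-IL-12p40 library and 6 in the untreated one, too few to describe as a population. The CD4 part of the label was set against CD11b+Ly-6G+ cells of the same libraries, with values beside the shares.

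Counts of CD4 in CD4+CD64+ cells were below those of T cells of the same library in weeks 1 to 6, by a wide margin in some weeks and a narrow one in others. The median was 145 counts per cell in week 0, 79 in week 1, 65 in week 2, 169 in week 3, 101 in week 4, 240 in week 5 and 96.5 in week 6. CD4- CD64+ cells of weeks 0 to 6 had 5 to 21 counts. CD3+CD4+ cells, the phenotype of helper T cells, had medians of 176 in week 1, 144 in week 2, 175 in week 3, 152 in week 4, 268 in week 5 and 216 in week 6. In week 0 the library held 1 CD3+CD4+ cell among 16735. The CD4 counted on 544 CD64+ cells in that week was thus measured with almost no CD3+CD4+ cells in the library. Other cells of that library were above the CD4 threshold, among them 502 of 1763 cells with CD64 and high CD90.2. The source of the CD4 counts was not tested.

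CD64 was similar in both populations of the gate. Its median in CD4+CD64+ cells was 115.5 counts in week 0, 68 in week 1, 63 in week 2, 217 in week 3, 112 in week 4, 164 in week 5 and 74.5 in week 6. In CD4- CD64+ cells it was 108, 57, 59, 184.5, 119, 123 and 71 counts at the same weeks. The medians were higher in CD4+CD64+ cells in 6 of 7 weeks, with week 4 the exception.

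CD3, part of the T cell receptor complex, was low by choice. Its median in CD4+CD64+ cells was 9, 6, 4, 22, 10, 29 and 6 counts in weeks 0 to 6. In CD4- CD64+ cells it was 8, 4, 4, 18, 8, 8 and 9 counts, and in CD3+CD4+ cells of weeks 1 to 6 it was 36 to 70 counts. The gap between CD4+CD64+ and CD4- CD64+ cells was widest in week 5.

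The ratio of added CD3 to added CD4 was taken from differences of mean counts, not from the medians above. Relative to CD4- CD64+ cells, each 100 added counts of CD4 came with 1.02 added counts of CD3 in week 0, 2.25 in week 1, 4.41 in week 2, 2.89 in week 3, 5.01 in week 4 and 8.64 in week 5. In week 6 CD3 was lower, at -3.35. CD3+CD4+ cells of weeks 1 to 6 held 16.7 to 40.2 counts of CD3 per 100 of CD4. The limit on CD3 in the choice holds these ratios down, so they describe the chosen cells only.

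**Figure D1:**
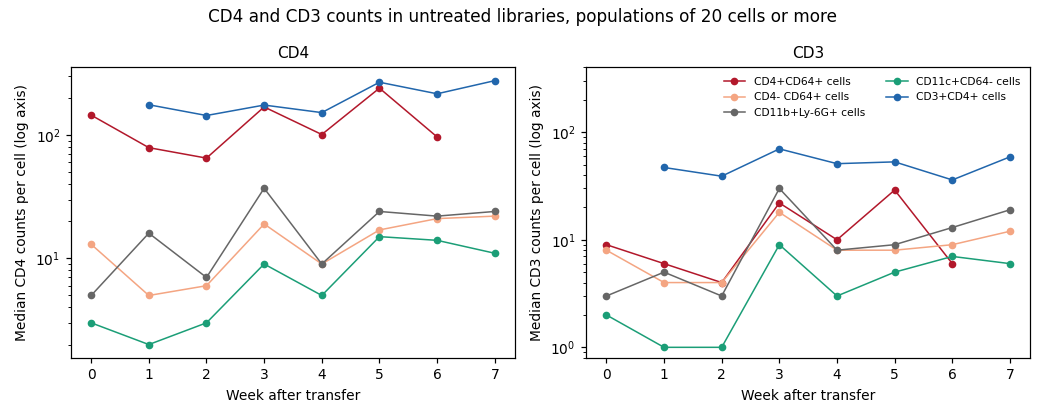
Median counts per cell of CD4 (left) and CD3 (right) on log axes against week after transfer in the 8 untreated libraries, with 1 line per population and a point only where it held 20 cells or more. CD4+CD64+ cells lie closer to CD3+CD4+ cells for CD4 and to CD4- CD64+ cells for CD3, except for CD3 in week 5.

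Markers of other cell types were set beside the CD4 call. The T cell markers CD3, CD90.2 and CD127 together took 8.98% to 14.0% of the counts of CD4+CD64+ cells in weeks 0 to 6, against 5.39% to 12.4% in CD4- CD64+ cells. The share was higher in CD4+CD64+ cells in 6 of 7 libraries and equal in week 0, at 10.5% in both. It was furthest apart in week 5, at 14.0% in CD4+CD64+ cells and 7.33% in CD4- CD64+ cells. In none of the 7 libraries did any of the 3 have a median of 0 in either population.

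In week 5 the CD4+CD64+ cells were also deeper, with a median of 1992 antibody counts per cell against 1064 in CD4- CD64+ cells. Their mean CD90.2, a protein of T cells and innate lymphoid cells, was 237 counts against 72.5. In week 0 the depths were 1072 in CD4+CD64+ cells and 1073 in CD4- CD64+ cells, and mean CD90.2 was 113 and 114 counts. The part of T cell material in the CD4 signal was not tested.

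Ly-6G, the neutrophil marker, took 0.581% to 1.64% of counts in CD4+CD64+ cells and 0.644% to 1.73% in CD4- CD64+ cells. Ly-6C, the monocyte marker, took 16.1% to 28.8% and 15.5% to 30.0%, and its share was lower in CD4+CD64+ cells in 6 of 7 libraries. CD4 counts are part of the total, so high CD4 lowers each other share. Median Ly-6C counts in weeks 0 to 6 were 186, 119, 189, 351, 170, 259.5 and 202.5 in CD4+CD64+ cells. In CD4- CD64+ cells they were 164, 101, 188, 388.5, 202, 245 and 264, so the order by counts differed between weeks. The innate lymphoid markers CD90.2, CD127 and KLRG1 took 7.95% to 13% in CD4+CD64+ cells and 4.67% to 11.7% in CD4- CD64+ cells. The dendritic cell markers CD11c and CD103 took 14.1% to 30.5% and 15.6% to 26.1%.

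Within the CD64 gate, CD4 formed a lower and an upper mode in week 0, and the upper mode was smaller later. A 2-component mixture put 53.2% of the gate in the upper component in week 0, with centres at a log ratio of 0.93 and -1.05. The upper component held 34.1% in week 1, 25% in week 2, 27.0% in week 3, 24.4% in week 4, 24.8% in week 5 and 22.4% in week 6. The gap was 3.46 in units of the components' spread (Ashman's D) in week 0 and 2.49 in week 3, the least separated of these 7 weeks. The centre of the upper component was 0.66 in week 1, 0.69 in week 2, 0.22 in week 3, 0.62 in week 4, 1.14 in week 5 and 0.73 in week 6. The threshold of 0.652 thus lay near that centre in weeks 1, 2, 4 and 6, and the choice left out the component's lower portion.

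Cells close to the threshold show how gradual it is. Over the 9 libraries 174 CD4+CD64+ cells, or 11%, lay within 0.1 above it, with a median of 58.5 CD4 counts. A similar number, 172 cells of the gate, lay within 0.1 below it, with a median of 70.5 counts. These medians pool libraries of different depth. In week 0, 48 cells lay just above with a median of 89 counts and 54 just below with 76.5. In week 4, 44 cells lay just above with 60.5 counts and 46 just below with 73.5.

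**Figure D2:**
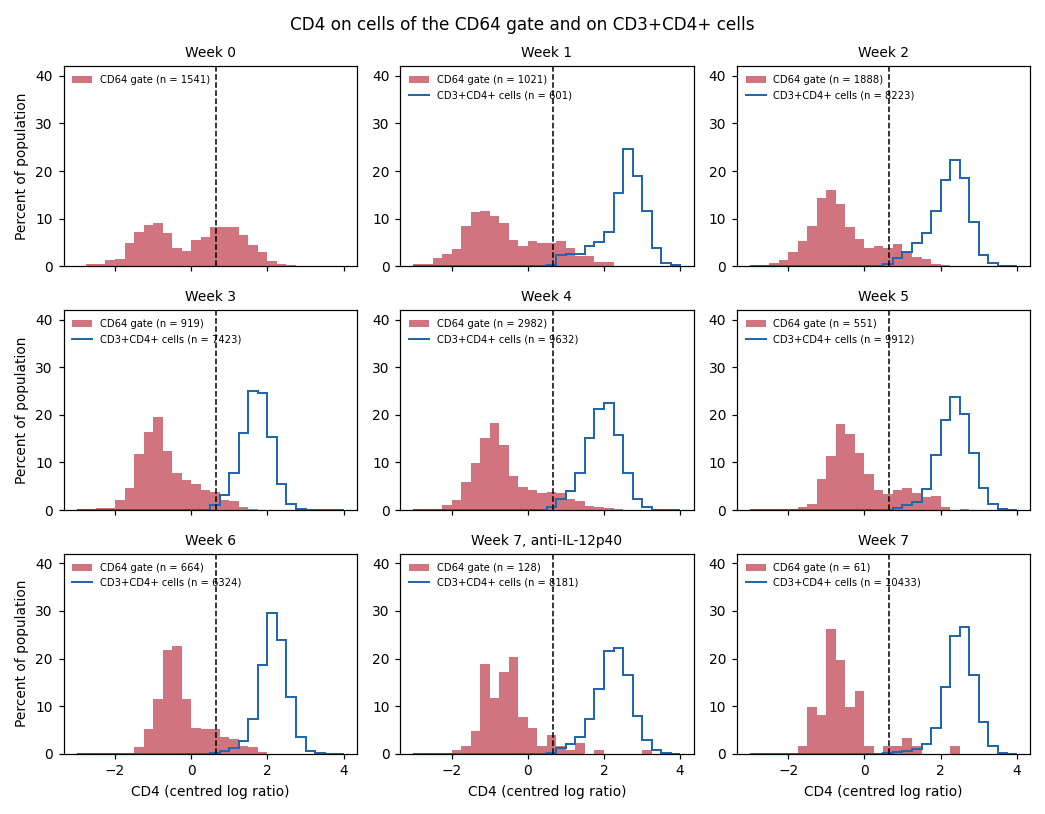
Distribution of the CD4 centred log ratio, as percent of each population, in cells of the CD64 gate (filled) and in CD3+CD4+ cells (line, where 20 or more), 1 panel per library. The dashed line is the threshold of 0.652, and the upper mode in week 0 holds 53.2% of the gate.

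CD4+CD64+ cells made up a larger share of the colon's immune cells in week 0 than in any later week. This order held under 13 of 14 other settings of the choice. The exception was a separate fit of the thresholds for every library, which gave 0.759% in week 0, 1.31% in week 1, 1.49% in week 2 and 1.87% in week 4. With the given thresholds their share of all cells was 3.25% in week 0 (exact 95% interval 2.99% to 3.53%), 1.40% in week 1, 1.23% in week 2, 0.438% in week 3, 1.91% in week 4, 0.820% in week 5, 0.648% in week 6 and 0.0504% in week 7 (0.0185% to 0.110%). The course was not steady, since week 4 was above weeks 1 to 3. Spearman's rho with week was -0.74 (exact permutation p = 0.0458, 0.137 after Benjamini-Hochberg adjustment over 3 shares), and Pearson's r was -0.75 (exact permutation p = 0.0251, adjusted 0.0754). Without weeks 0 and 7, the farthest from the median week, rho was -0.37 (exact permutation p = 0.497) and r was -0.34 (exact permutation p = 0.497), so the relation rested on those libraries. The adjusted p was below 0.05 when week 3 or week 4 was left out, with rho -0.89 in both cases.

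T cells take a growing part of these libraries, so shares were also taken of CD3- cells, which were 16634 of 16735 in week 0 and 1422 of 11907 in week 7. Among CD3- cells the share of CD4+CD64+ cells was 3.27% in week 0, 1.50% in week 1, 2.09% in week 2, 1.14% in week 3, 4.27% in week 4 (3.84% to 4.74%), 2.89% in week 5, 1.47% in week 6 and 0.422% in week 7. Week 4 was here the highest of the 8, but week 0 was above it with scaled counts (1.47% and 1.42%), the CD4 threshold raised by 0.5 (1.76% and 1.71%), the threshold from Ly-6G+ cells (3.27% and 2.36%) and no CD90.2 condition (6.29% and 4.89%). The trend with week did not pass, with rho -0.45 (exact permutation p = 0.267, adjusted 0.267) and r -0.34 (exact permutation p = 0.413, adjusted 0.413). Without weeks 0 and 7 the sign turned, with rho 0.09 (exact permutation p = 0.919) and r 0.24 (exact permutation p = 0.661).

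The size of the CD64 gate and the CD4+ share within it peaked in different weeks, and their relation was not tested. The gate leaves out CD64+ cells with high Ly-6C or CD90.2 and so does not count all of them. It left out 1763 cells with CD64 and high CD90.2 in week 0, and 92 in week 4. The whole gate held 9.21% of all cells in week 0, 8.10% in week 1, 9.0% in week 2, 7.32% in week 3, 16.6% in week 4, 3.96% in week 5, 5.82% in week 6 and 0.512% in week 7. The high share of CD4+CD64+ cells in week 4 thus stood beside the largest CD64 gate. CD4- CD64+ cells alone held 14.7% of all cells in week 4 and 5.96% in week 0.

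Within the gate, CD4+ cells were most frequent in week 0. They made up 35.3% of it in week 0 (32.9% to 37.7%), 17.2% in week 1 (15.0% to 19.7%), 13.6% in week 2, 5.98% in week 3 (4.54% to 7.72%), 11.5% in week 4, 20.7% in week 5 (17.4% to 24.3%), 11.1% in week 6 and 9.84% in week 7 (3.70% to 20.2%). The interval in week 0 lay above that of each other week, and intervals cover counting error within 1 pool only. Spearman's rho with week was -0.57 (exact permutation p = 0.151, adjusted 0.227) and r was -0.58 (exact permutation p = 0.122, adjusted 0.183). Without weeks 0 and 7 rho was -0.20 (exact permutation p = 0.714) and r was -0.04 (exact permutation p = 0.942).

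CD11b+Ly-6G+ cells, a phenotype that includes neutrophils, were taken as background of the CD4 call, since neutrophils are not expected to carry CD4. Above the same threshold were 4.80% of CD11b+Ly-6G+ cells in week 0, 8.65% in week 1, 9.96% in week 2, 12.4% in week 3, 8.50% in week 4, 36.7% in week 5, 21.3% in week 6 and 38.0% in week 7. The share in the CD64 gate was above this in weeks 0, 1, 2 and 4, with exact intervals apart in weeks 0, 1 and 4. In weeks 3, 5, 6 and 7 the gate's share was below that of CD11b+Ly-6G+ cells, so no CD4 on macrophages is read from it. The source of these counts was not tested. CD11b+Ly-6G+ cells were limited on CD3 but, unlike the gate, not on CD90.2 or Ly-6C, and no CD64 condition was set. Their median CD64 in untreated weeks 0 to 7 was 9, 62, 17.5, 70, 47.5, 17, 16 and 8 counts. Cells with CD64 were thus not kept out of them. The upper quartile of CD90.2 in CD11b+Ly-6G+ cells of untreated weeks 0 to 7 was 1227, 704, 292, 557, 63, 252, 516 and 653 counts. Without its CD90.2 condition the gate's share was 7.78% in week 3, 29.2% in week 5, 18.3% in week 6 and 12.7% in week 7. Those values were also below the share in CD11b+Ly-6G+ cells. Median depth in weeks 0 to 6 was 700.5 to 1992 counts per CD4+CD64+ cell, 577 to 1399 per CD4- CD64+ cell and 1404 to 4575 per CD11b+Ly-6G+ cell.

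Against CD11c+CD64- cells, a phenotype that includes dendritic cells, the gate's share was higher in each untreated library except that of week 3. Of these, 3.47% were above the CD4 threshold in week 0, 5.12% in week 1, 11.5% in week 2, 9.52% in week 3, 10.1% in week 4, 18.7% in week 5, 5.97% in week 6 and 4.30% in week 7. The intervals of the gate lay above them in weeks 0, 1 and 6. Weeks 0 and 1 were the 2 weeks in which the CD64 gate stood clear of both populations.

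The CD4 threshold of each library was next raised to the 95th percentile of its CD11b+Ly-6G+ cells where that was above 0.652. It stayed at the given value in week 0 and rose in each later week, to 0.83 in week 1 and 1.75 in week 5. Of the gate, 35.3% remained CD4+ in week 0, 13.4% in week 1, 6.94% in week 2 and 3.05% in week 3. The share was 6.34% in week 4, 3.81% in week 5, 2.86% in week 6 and 1.64% in week 7. Spearman's rho with week was then -0.93 (exact permutation p adjusted over 3 shares 0.00670) for the share of the gate, -0.90 (adjusted 0.00685) for the share of all cells and -0.86 (adjusted 0.0107) for the share of CD3- cells, by the same exact permutation test. This threshold moves with the CD4 counts of the CD11b+Ly-6G+ cells, and how much of the trend this sets was not tested.

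**Figure D3:**
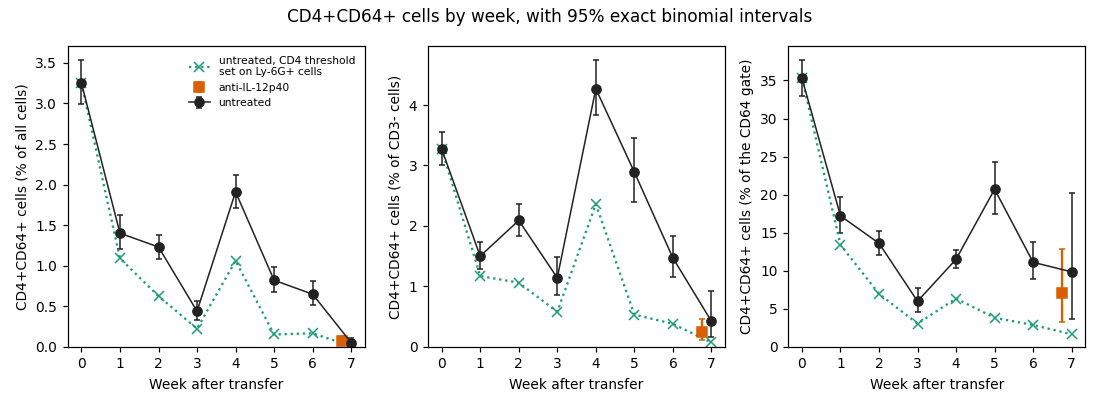
Share of CD4+CD64+ cells among all cells, CD3- cells and the CD64 gate (left to right, percent) against week after transfer, with exact 95% binomial intervals. Circles are untreated libraries and the square is the anti-IL-12p40 library, drawn left of the untreated week 7. Crosses use the CD4 threshold raised on Ly-6G+ cells, which in week 0 stayed as given. The untreated series starts at 35.3% of the gate and ends at 9.84%.

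In week 7 CD4+CD64+ cells were rare in both libraries. There were 9 among 12437 cells of the anti-IL-12p40 library, or 0.0724%, and 6 among 11907 cells of the untreated library, or 0.0504%. The ratio was 1.44 (exact 95% interval 0.457 to 4.90). As a share of CD3- cells it was 0.578 (0.184 to 1.97), at 0.244% in treated and 0.422% in untreated mice. As a share of the CD64 gate it was 0.715 (0.227 to 2.44), at 7.03% of 128 cells with treatment and 9.84% of 61 cells without. Each group is 1 library, so there was no test, and every one of these intervals held 1. Both shares of the gate were below those of CD11b+Ly-6G+ cells above the CD4 threshold, 14.8% in the treated and 38.0% in the untreated library. Untreated weeks 5 to 7 alone spanned 0.0504% to 0.820% of all cells.

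The few week 7 cells were mixed in content. CD64 spanned 8 to 410 counts with a median of 109 in the 9 treated cells, and 4 to 316 with a median of 55 in the 6 untreated ones. CD11b spanned 4 to 413 counts with a median of 129 in treated cells, and 0 to 780 with a median of 38.5 in untreated cells. Their median depth was 962 counts in treated and 387 in untreated mice.

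The panel's other 5 antibodies, CD11b, CD11c, CD103, KLRG1 and CD127, had no threshold in the choice, but each entered the mean over 11 antibodies that the choice subtracts. At equal CD4 counts a cell with less CD11b thus passed the CD4 threshold more easily. They were compared within each library on a scale of their own, ln(count + 1) less its average over these 5, so that the CD4 counts did not enter the compared values. A lower value of 1 of the 5 then raises the other 4. The test was a two-sided exact sign-flip permutation over the 7 libraries with at least 20 cells in both populations, weeks 0 to 6. Its smallest p is 0.0156. Of the 5 antibodies, 3 passed at an adjusted p of 0.05: CD11b was lower, and CD11c and CD127 were higher, in CD4+CD64+ cells, although CD11c and CD127 turned sign on other scales.

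CD11b was lower on CD4+CD64+ cells in 7 of 7 libraries. Its median log ratio in CD4+CD64+ cells was 2.27 in week 0, 2.24 in week 1, 2.18 in week 2, 1.52 in week 3, 2.01 in week 4, 2.11 in week 5 and 1.53 in week 6. In CD4- CD64+ cells it was 2.62, 2.69, 2.47, 2.0, 2.47, 2.48 and 2.04. The difference averaged -0.41 ± 0.08 (SD, n = 7), or 0.661-fold, and ranged from -0.51 to -0.29 (exact sign-flip permutation p = 0.0156, adjusted 0.0260). It stayed negative under all 19 alternative settings, from -0.64 to -0.17 on a log scale, with adjusted exact permutation p from 0.0195 to 0.371. When the log ratio of the choice was taken over its own 6 antibodies only, a setting chosen after seeing the data in which CD11b does not enter the choice, the difference was -0.33 (adjusted exact permutation p = 0.0260 over 7 libraries). The call was lost under 7 settings. In 4 of these only 4 to 6 libraries had enough cells, and the difference was -0.55 to -0.38. The smallest p of the exact test is 0.125 with 4 libraries and 0.0312 with 6, and the adjusted value of 0.0312 is 0.0521 when 3 of the 5 antibodies reach it. With the threshold from Ly-6G+ cells, over 6 libraries, the adjusted exact permutation p for CD11b was 0.0781. The difference was smallest, -0.17, without the CD90.2 condition, where 8 libraries were tested. In weeks 0 and 1, where the CD4 call stood clear of its background, the difference was -0.35 and -0.45.

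Plain counts of CD11b gave this order in 6 of the 7 libraries. Medians in CD4+CD64+ cells were 302 counts in week 0, 192.5 in week 1, 129 in week 2, 170 in week 3, 167 in week 4, 351.5 in week 5 and 90 in week 6. Those of CD4- CD64+ cells were 430, 241, 164, 280.5, 247, 289 and 205 counts. Week 5 was the exception, and in that week the CD4+CD64+ cells were the deeper ones.

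CD11c, the integrin of dendritic cells that colonic macrophages also carry, was higher on CD4+CD64+ cells in 7 of 7 libraries on the scale of 5 antibodies. The difference averaged 0.24 ± 0.11 (SD, n = 7), or 1.27-fold (exact sign-flip permutation p = 0.0156, adjusted 0.0260). It was smallest in weeks 0 and 2, both 0.14, and largest in week 4, where the medians were 2.64 in CD4+CD64+ cells and 2.20 in CD4- CD64+ cells. This direction depended on the scale: the difference was -0.0034 on the log ratio over all 11 antibodies, whose mean includes CD4, and -0.03 when cells were chosen on counts scaled to the library median. It was 0.03 with cells thinned to 200 counts, 0.03 without the CD90.2 condition and 0.0037 with thresholds fitted in each library. With the log ratio of the choice over its own 6 antibodies it was 0.22. The call was lost under 9 of the 19 settings in addition to the 2 that turned the sign, 3 of them with 6 libraries, where the difference was 0.25 to 0.31.

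The ratio of CD11c to CD11b counts does not depend on a cell's mean over other antibodies. In CD4+CD64+ cells it was 0.362 in week 0, 0.337 in week 1, 1.06 in week 2, 1.57 in week 3, 1.84 in week 4, 0.559 in week 5 and 1.84 in week 6. The ratio of CD4- CD64+ cells was 0.221, 0.220, 0.737, 0.871, 0.741, 0.295 and 0.781. It was higher in CD4+CD64+ cells in 7 of 7 libraries, from 1.44-fold in week 2 to 2.48-fold in week 4. Lower CD11b alone raises this ratio, and both antibodies enter the mean over 11 antibodies used in the choice. Median CD11c counts in weeks 0 to 6 were 112.5, 71, 128, 322, 301.5, 175.5 and 162 in CD4+CD64+ cells. In CD4- CD64+ cells they were 94, 49, 118, 233, 188, 81 and 165, so week 6 had the opposite order.

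CD127, the interleukin-7 receptor of lymphocytes, was higher by 0.20 ± 0.12 (SD, n = 7), or 1.22-fold, in 7 of 7 libraries, with a range of 0.01 to 0.35 (exact sign-flip permutation p = 0.0156, adjusted 0.0260), while the difference was -0.05 on the log ratio over 11 antibodies. With the log ratio of the choice over its own 6 antibodies it was 0.18. The call was lost under 7 settings in addition to the 2 that turned the sign, 4 of them with 4 to 6 libraries, where the difference was 0.19 to 0.25. Its counts were low, with medians of 2 to 15 per CD4+CD64+ cell and 2 to 13 per CD4- CD64+ cell. In weeks 2 and 4 the median counts were equal in both populations, at 2 and 3. Its 2 mixture components were not separable (Ashman's D 1.56), so a share of positive cells means little for it.

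CD103, an integrin that binds E-cadherin on epithelium, differed by 0.01 ± 0.05 (SD, n = 7; exact sign-flip permutation p = 0.531, adjusted 0.531). KLRG1, a lectin-like receptor of lymphocytes, differed by -0.03 ± 0.10 (SD, n = 7; exact sign-flip permutation p = 0.469, adjusted 0.531). Neither passed, and the sign of each turned under several settings. CD103 was above its threshold on 0% to 9.65% of CD4+CD64+ cells and 1.19% to 12.8% of CD4- CD64+ cells. KLRG1 was above it on 0% to 3.98% and 0% to 3.21%.

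**Figure D4:**
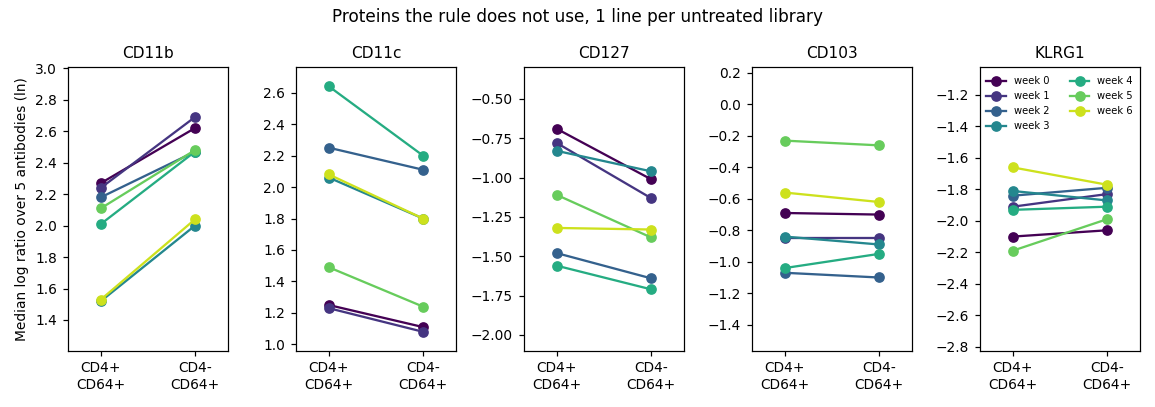
Median log ratio over the 5 antibodies outside the choice, on natural log axes of their own range, in CD4+CD64+ cells (left point) and CD4- CD64+ cells (right point), 1 line per untreated library of weeks 0 to 6. On this scale CD11b is lower and CD11c and CD127 are higher in CD4+CD64+ cells on each of the 7 lines (CD11c and CD127 turn sign on the scale of 11 antibodies), while CD103 and KLRG1 go both ways.

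With 1 library left out, 6 remain, where 3 antibodies at the smallest p of the exact test have an adjusted p of 0.0521, and no antibody passed. The mean difference without 1 library stayed at -0.44 to -0.40 for CD11b, 0.20 to 0.25 for CD11c and 0.17 to 0.23 for CD127. When both populations were limited to cells with CD3 counts at or under the CD4- median of their library, a setting chosen after seeing the data, week 5 dropped out with 6 such CD4+CD64+ cells. In the other 6 libraries CD11b differed by -0.55, CD11c by 0.25 and CD127 by 0.21, with an adjusted p of 0.0521 by the exact permutation test for each. These means leave out week 5, and the part of T cell material in the differences was not tested.

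CD11b and CD11c together split the cells further. CD11b+CD11c+ cells were the majority of CD4+CD64+ cells in each of weeks 0 to 6, at 70.6%, 63.6%, 87.9%, 56.4%, 78.4%, 56.1% and 67.6%. CD11c+ cells without CD11b made up 2.57% of CD4+CD64+ cells in week 0, 2.84% in week 1, 6.61% in week 2, 30.9% in week 3, 15.2% in week 4, 5.26% in week 5 and 27.0% in week 6. Among CD4- CD64+ cells they made up 2.11%, 2.37%, 0.858%, 5.67%, 3.75%, 4.81% and 4.92%. The share of this CD11b- phenotype was higher among CD4+CD64+ cells in all 7 libraries, by little in weeks 0, 1 and 5 and by the widest margins in weeks 3, 4 and 6. High CD4 counts lower the CD11b and CD11c values behind these shares, since CD4 enters the mean subtracted from both. This moves CD4+CD64+ cells toward the CD11b- side by construction. How much of the higher share it sets was not tested, and the shares themselves were not tested.

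Medians of CD11b were also taken in bins of the CD4 log ratio within the gate. Since CD11b is part of the mean subtracted from CD4, some decrease over these bins is built in. In week 0 its median log ratio was 2.83 in the lowest CD4 bin, 2.73 and 2.38 in the next bins, and 2.27 in both bins above the threshold of 0.652. In week 4 it was 2.51, 2.46, 2.34, 2.09 and 1.83 from the lowest to the highest bin. Over weeks 0 to 6, 21 of 27 steps to the next higher CD4 bin lowered it, 5 raised it and 1 left it equal, counting bins of 20 cells or more. With the log ratio of the choice over its own 6 antibodies, where CD11b does not enter, and 5 bins of equal size, 24 of 28 steps lowered it. In week 0 the medians were then 2.85, 2.51, 2.35, 2.24 and 2.17 from the lowest to the highest CD4.

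CD11c was less regular, with 17 of 27 steps upward. In week 4 its log ratio was 2.12, 2.26, 2.27, 2.49 and 2.89 from the lowest to the highest bin. In week 0 it was 1.32, 1.01, 0.98, 1.17 and 1.34, so the cells lowest and highest in CD4 had about the same value. For CD127, 20 of 27 steps went up. Over the bins of equal size, 16 of 28 steps went up for CD11c and 20 of 28 for CD127.

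**Figure D5:**
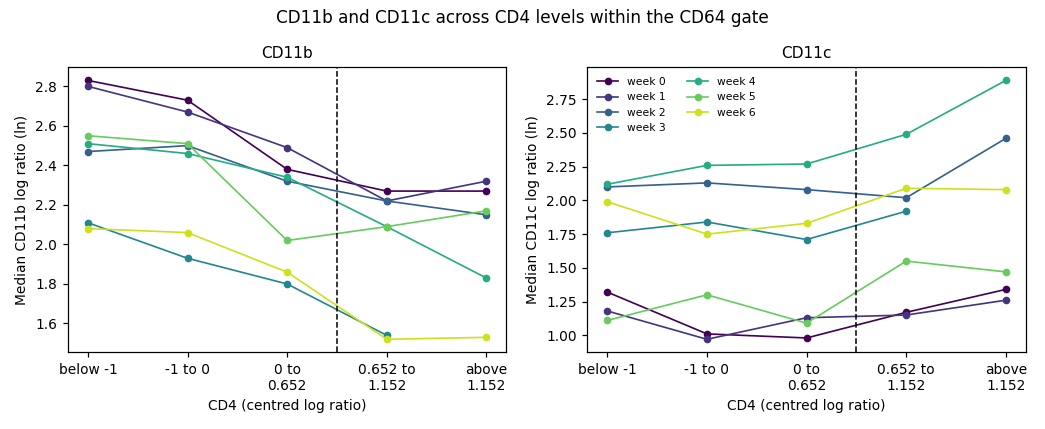
Median log ratio over 5 antibodies (natural log) of CD11b (left) and CD11c (right) in bins of the CD4 centred log ratio within the CD64 gate, 1 line per untreated library of weeks 0 to 6 and a point only for bins of 20 cells or more. The dashed line is the threshold of 0.652. CD11b decreases over 21 of 27 steps, part of which the CD4 axis builds in, while CD11c increases over 17 of 27.

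Across weeks the 5 antibodies within CD4+CD64+ cells showed no trend that passed, with 0 of 5 below an adjusted p of 0.05 and 0 of 5 below an unadjusted 0.05 by the exact permutation test of Spearman's rho over the 7 libraries. CD11b had rho -0.75 with week (exact permutation p = 0.0663, adjusted 0.331), and CD11c had rho 0.50 (exact permutation p = 0.267, adjusted 0.442). CD103 had rho 0.43, KLRG1 0.25 and CD127 -0.61. The level of CD11c differed widely between weeks in both populations together. Its log ratio in CD4+CD64+ cells was 1.25 and 1.23 in weeks 0 and 1, 2.25, 2.06 and 2.64 in weeks 2, 3 and 4, 1.49 in week 5 and 2.08 in week 6. In CD4- CD64+ cells it was 1.11 and 1.08 in weeks 0 and 1, 2.11, 1.80 and 2.20 in weeks 2, 3 and 4, 1.24 in week 5 and 1.80 in week 6.

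Cells with CD64 and high CD90.2, which the choice left out, carried CD4 often. Of these, 28.5% of 1763 cells were above the CD4 threshold in week 0, 19.5% of 816 in week 1, 47.0% of 487 in week 2, 27.4% of 84 in week 3, 53.3% of 92 in week 4, 70.2% of 114 in week 5 and 69.6% of 92 in week 6. The CD64 gate, at 35.3% in week 0 and 20.7% or less later, was above them in week 0 only. In week 7 the anti-IL-12p40 library had 18.6% of 113 such cells, and the untreated library held 2 cells. Median depth of cells with CD64 and high CD90.2 was 3258, 1638, 1259, 2532, 1896, 2702 and 2188 counts in weeks 0 to 6. In CD4+CD64+ cells it was 1072, 700.5, 753, 1534, 1066, 1992 and 778 counts. High CD90.2, by which these cells were taken, adds to their depth, and whether their barcodes held more than 1 cell was not tested. Without the CD90.2 condition the share of all cells had a rho of -0.86 with week (adjusted exact permutation p = 0.0321).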

How the data were processed

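Antibody tags against 11 proteins were counted per cell in 9 libraries of sorted colon immune cells. The deposited values are whole-number counts per barcode, not normalized by the authors, judged from the files. Cell Ranger 6.0.2 and Seurat 4.1.1 appear in the submitters' processing notes without a role. The sources used here do not give how barcodes were selected. Per the labels' protocols, about 16000 cells were loaded per library and tissue was collected every 7 days.

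Barcodes with fewer than 50 counts or above the 99th percentile of their library were left out, which kept 130442 of 131917. Counts were turned into centred log ratios. The 6 thresholds of the choice were taken as given, and a refit (2-component Gaussian mixtures on 2000 cells per library, equal-probability point) differed from them by at most 0.014. The same fit gave thresholds of 0.71 for CD11b, 0.50 for CD11c, 0.15 for CD103, -0.59 for KLRG1 and -0.87 for CD127. The members and marker lists were chosen with earlier results of these data known.

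Share trends used all 40320 orderings of the 8 untreated libraries, and differences used sign flips over libraries, with Benjamini-Hochberg adjustment at 0.05. Intervals of shares are exact Clopper-Pearson 95% intervals and cover only counting error. All 11 antibodies are named. Steps were tested on simulated data, where the choice overcounted CD4+CD64+ cells when their true share was very low. Alternatives were other scalings, thinning to 200 counts per cell, other thresholds and conditions, and leaving out each library. No model across genes was fitted. Tools were scipy 1.17.1, numpy 2.4.6, scikit-learn 1.9.0, pandas 2.3.3 and matplotlib 3.10.9 under Python 3.11.15.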

Additional observations from a re-analysis of the deposited data

How the results depend on the processing

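The shares of CD4+CD64+ cells kept a negative rank correlation with week under all alternatives, except among CD3- cells without weeks 0 and 7 (0.09). The correlation passed the test, unlike with the given thresholds, for all cells at -0.88 (counts scaled to the library median), -0.90 (CD4 threshold from Ly-6G+ cells) and -0.86 (no CD90.2 condition). For CD3- cells it passed at -0.74 (scaled counts) and -0.86 (Ly-6G+ cells), and for the CD64 gate at -0.93 (Ly-6G+ cells). With 1 library left out it was -0.89 to -0.61 for all cells, -0.68 to -0.18 for CD3- cells and -0.79 to -0.36 for the gate. The treated to untreated ratio at week 7 was 1.20 to 3.83 over 13 alternatives. Scaled counts left 0 cells of the untreated library at week 7 in the gate and so gave neither that ratio nor a gate trend.

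The number of antibodies that differed between CD4+CD64+ and CD4- CD64+ cells, 3 of 5, was 0 with scaled counts, the CD4 threshold raised by 0.5, the threshold from Ly-6G+ cells, the natural log of scaled counts, percent above the threshold and low CD3 counts. In 4 of these (scaled counts, CD4 raised by 0.5, Ly-6G+ cells and low CD3) 4 to 6 libraries had enough cells. With 6, 3 antibodies at the smallest p of the exact test have an adjusted p of 0.0521. This was the value with CD4 raised by 0.5 and with low CD3, so those lost calls say little of stability. With the threshold from Ly-6G+ cells the adjusted p of that test was higher, 0.0781 for each of CD11b, CD11c and CD127. With scaled counts CD11c had an adjusted exact permutation p of 0.875 over 4 libraries. It was 1 without the CD90.2 condition and 0 (lowest and highest) with any library left out, where 6 libraries remain. Differences that turned sign were as follows. For CD11c they were -0.03 (scaled counts) and -0.0034 (11 antibodies). For CD127 they were -0.05 (11 antibodies) and -0.502 percentage points (percent above the threshold). For CD103 they were -0.08 (thresholds per library), -0.02 (CD4 raised by 0.5), -0.10 (no Ly-6C condition), -0.07 (log ratio of the choice over 6 antibodies), -0.21 (11 antibodies), -0.05 (log of scaled counts) and -2.30 percentage points. For KLRG1 they were 0.17 (scaled counts), 0.11 (thinned cells), 0.07 (thresholds per library), 0.02 (CD4 threshold fitted on the gate), 0.01 (log of scaled counts), 0.01 (matched CD64) and 0.02 (low CD3). Correlations with week turned for CD103 at -0.80 (scaled counts), -0.43 (percent) and -0.09 (low CD3), and for KLRG1 at -0.40 (scaled counts), -0.20 (Ly-6G+ cells), -0.04 (11 antibodies), -0.80 (percent) and -0.20 (without week 6; up to 0.66 with another library left out). The cause was not tested. No paired analysis was possible because there is 1 library per week and treatment, apart from the comparison of both cell populations within each library, which is paired. The threshold fitted on the gate, the limit on CD3 and the log ratio over 6 antibodies were added after seeing the data. Thinning left out 0.366% to 13.7% of cells. The number of cells limits week 7, where 6 and 9 cells cannot show a difference of a few fold.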
